A study of Homo sapiens with 12 samples.

Results

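The antiviral interferon-stimulated genes are a set of 57 genes that interferons are known to induce, and many of their products restrict viruses. They were taken by name from the count table, which lists 60666 genes, and each name was found in exactly 1 row. The libraries came from HT1376, a human bladder cancer cell line, in 4 groups of 3 libraries each (replicates 11, 12 and 13). HT1376 CT, the wild type of the labels, carries a CRISPR guide against luciferase, which human cells lack, and was either untreated or given IFNγ at 100 ng/mL for 48 hours. HT1376 FOXP3 KO carries a guide against FOXP3, the transcription factor of regulatory T cells, and was likewise untreated or given the same IFNγ. All 4 groups therefore carry the CRISPR vector and were selected with puromycin. The study's methods describe both lines as single-cell clones, so a difference between the lines cannot be told apart from a difference between clones, and no source says that the 3 libraries of a group came from separate cultures. The p-values then measure only the spread between these libraries, which may be technical.

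Type I and type III interferons signal through a factor complex that includes STAT2 and IRF9 and binds an interferon-stimulated response element (ISRE), a DNA element with repeated GAAA motifs in promoters. IFNγ signals through its own receptor and the kinases JAK1 and JAK2 to genes with a gamma-activated site (GAS), among them IRF1, whose product binds ISRE-like elements. Many antiviral genes therefore respond to both kinds of interferon. Their products act at different steps of infection, from membrane entry through RNA sensing and degradation to viral assembly and release.

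Promoter windows of these genes were searched for the ISRE and the GAS. RefSeq promoter sequences (GRCh38.p14, 250 bases before to 50 bases after the start site) were found for 46 of the 57 genes, with DDX58 listed under its newer symbol RIGI. IFIT2, IFITM2, MX2, OAS2, OASL, DHX58, UBA7, USP18, PARP10, PML and LAMP3 had no entry. The ISRE core, GAAANNGAA on either strand, was in 29 of the 46 windows (63.0%), against 8.11% of all 35116 promoters of the same length. The GAS core, TTCNNNGAA on either strand, was in 11 of them (23.9%), against 7.66% of all promoters. The ISRE core with 1 further A at its end was in 27 of them (58.7%), against 3.57%. The following stretches are examples from genes described below. IFIT3 and RTP4 each held a further stretch that is not shown, and other genes described below also held matches. The ISRE core match is in capitals (overlapping matches are joined). Each stretch is read 5′ to 3′ on the strand of the gene, so that a match on the other strand appears as its reverse complement.

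ISG15, chr1:1013376-1013405, plus strand: tgcctcggGAAAGGGAAACCGAAACTGAAg
IFIT3, chr10:89327868-89327892, plus strand: aaattagtTTCACTTTCcagtttcc
MX1, chr21:41420561-41420590, plus strand: gcagaaatGAAACCGAAACTGAAttgtccg
IFITM1, chr11:313992-314016, plus strand: aacagcagGAAATAGAAacttaaga
IFITM1, chr11:314026-314050, plus strand: acttctgaGAAACTGAAacgacagg
RSAD2, chr2:6865798-6865822, plus strand: cgggaaacGAAAGCGAAgcgttgcg
RTP4, chr3:187368335-187368364, plus strand: catacacaGAAACAGAAACTGAAccgaaca
EPSTI1, chr13:42992275-42992299, minus strand: gattctgaGAAACCGAAactcagct
BST2, chr19:17405739-17405768, minus strand: ctttctggGAAACTGAAACTGAAaacctaa
IFI44L, chr1:78620276-78620300, plus strand: ctagtgagGAAAAAGAAagttagtg
IFI44L, chr1:78620367-78620391, plus strand: ctagtgagGAAAAAGAAagttagtg

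ISG15 held 3 overlapping copies of the core in 1 stretch, and MX1, RTP4 and BST2 held 2 each in the stretch shown. The 2 IFI44L stretches had the same letters at different positions. The windows of CMPK2, IFI16, SP110, XRN1, XAF1, SAMD9L and STAT2, among others described below, held no ISRE core, which says only that these letters are not in these windows.

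**Figure D1:**
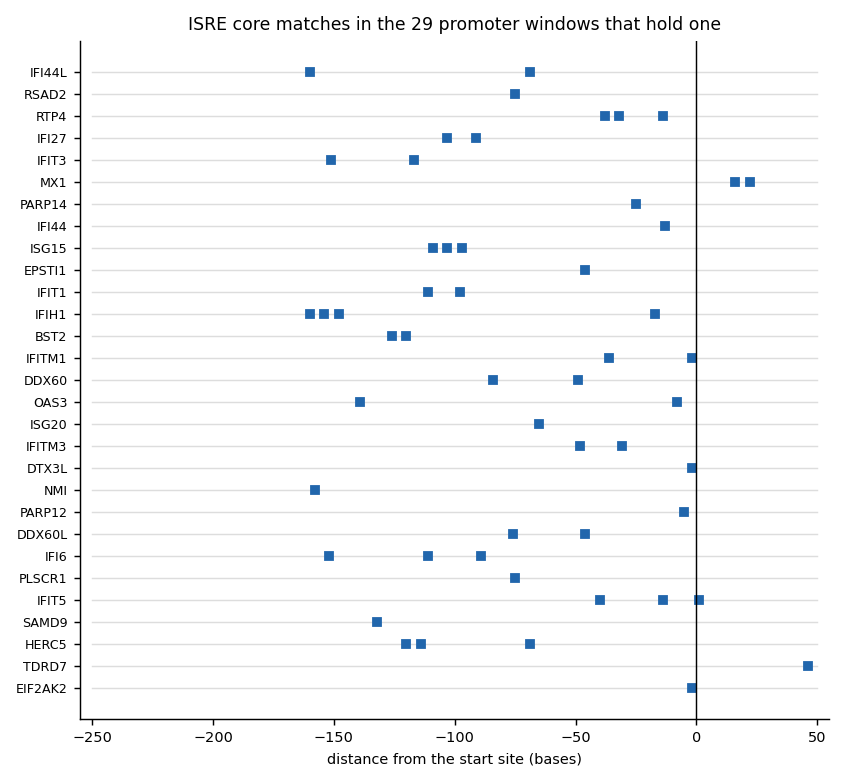
Positions of the ISRE core (on either strand) in the 29 promoter windows that hold one. The x axis is the distance in bases of the centre of each match from the start site (vertical line), each grey line is the window searched, and genes are ordered from the largest to the smallest log2 fold change with IFNγ in HT1376 CT. The matches of MX1 and TDRD7 begin after the start site, and the others begin at positions from -164 to -3.

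The libraries held 4490684 to 39270042 counts, with the fewest in replicate 12 of CT with IFNγ. FOXP3 had at most 3 counts in any library, so the targeted gene cannot check the labels here. Mitochondrial genes took 3.10% to 3.63% of counts in CT libraries and 4.08% to 5.11% in KO libraries. The 16 urothelial and epithelial markers summed to 4634 to 5930 normalized CPM (counts per 1000000 counts, with TMM factors) over all libraries. Single markers went both ways. By the test used below, 3 of the 16 were higher and 5 lower in untreated KO, against 14.0% and 18.2% of all genes. Their log2 differences ran from -2.54 to 1.45. KRT13 had 1944, 879 and 3033 counts in untreated CT and 317, 144 and 317 in untreated KO. KRT7 had 9423, 7558 and 29611, and 34577, 10012 and 22891. The 10 leukocyte markers summed to 3.56 to 5.25 CPM in untreated CT and 102 to 233 CPM in untreated KO, nearly all of it CSF1R, while MS4A1, NKG7 and CD68 had no count in any group. The 6 fibroblast markers summed to 45.6 to 65.6 CPM in untreated CT and 479 to 731 CPM in untreated KO. That rise lay in COL1A2, COL3A1, DCN and LUM. COL1A1 went the other way, with 442, 361 and 1202 counts in untreated CT and 199, 82 and 130 in untreated KO. PDGFRA had at most 13 counts in any library. The 5 endothelial markers summed to at most 9.38 CPM in any library. The part of these differences in the results between the lines was not tested.

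The 57 genes took up 0.369% ± 0.052 (SD, n = 3) of all counts in untreated CT and 1.42% ± 0.21 with IFNγ. In KO they took up 0.277% ± 0.011 and, with IFNγ, 0.760% ± 0.044. In bulk libraries, a lower level in every cell and a smaller part of the cells responding cannot be told apart. Replicate 12 was the highest library in both CT groups and in KO with IFNγ. In CT, the median gene of the set lay above its group mean by 0.27 on the log2 scale in untreated replicate 12 and by 0.20 in replicate 12 with IFNγ, while the median of all genes lay at -0.01 and -0.05.

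**Figure D2:**
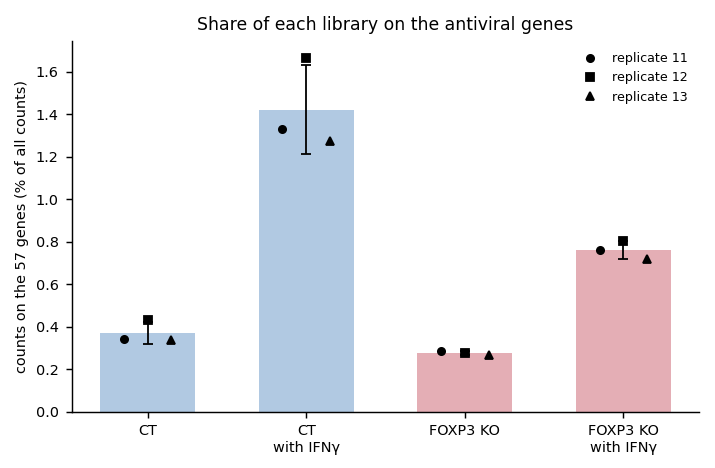
Share of each library's counts on the 57 antiviral genes, in percent. Bars are group means with SD error bars (n = 3), and symbols are single libraries. Mean shares were 0.369% and 1.42% without and with IFNγ in CT and 0.277% and 0.760% in KO, with no overlap between untreated and treated libraries in either line.

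IFNγ raised almost the whole set in CT. By edgeR's quasi-likelihood test (adjusted p under 0.05 over all genes tested), 55 of the 57 genes were higher with IFNγ and 0 were lower, against 3.53% of all 24416 genes tested that were higher and 1.82% that were lower. The median log2 fold change of the set was 2.45, and that of all genes tested was -0.02. HERC5 (1.16 ± 0.30, adjusted p = 0.0505) and IFITM2 (0.09 ± 0.19, adjusted p = 0.881) did not pass. With the replicate number as a block, HERC5 passed too (56 genes higher, against 8.67% of all genes).

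In KO, 50 of the 57 genes were higher with IFNγ and 0 were lower, against 0.978% of all 24131 genes tested that were higher and 0.00414% that were lower. The median log2 fold change was 1.82, and that of all genes tested was -0.01. IFIT2, HERC5, USP18, XRN1, IFI44 and TDRD7 had log2 fold changes of 0.38 to 2.13 that did not pass, and IFITM2 was at -0.14 ± 0.12. With the replicate block, all of these but IFITM2 passed (56 genes higher, against 3.92% of all genes). Without replicate 11 in both groups the count in KO was 27, against 0.478% of all genes. The calls of IFIT1, IFITM1, MX2, DHX58, ISG15, ZC3HAV1, ISG20 and CMPK2 in KO were each lost in at least 5 of the 9 fits without 1 or 2 libraries.

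**Figure D3:**
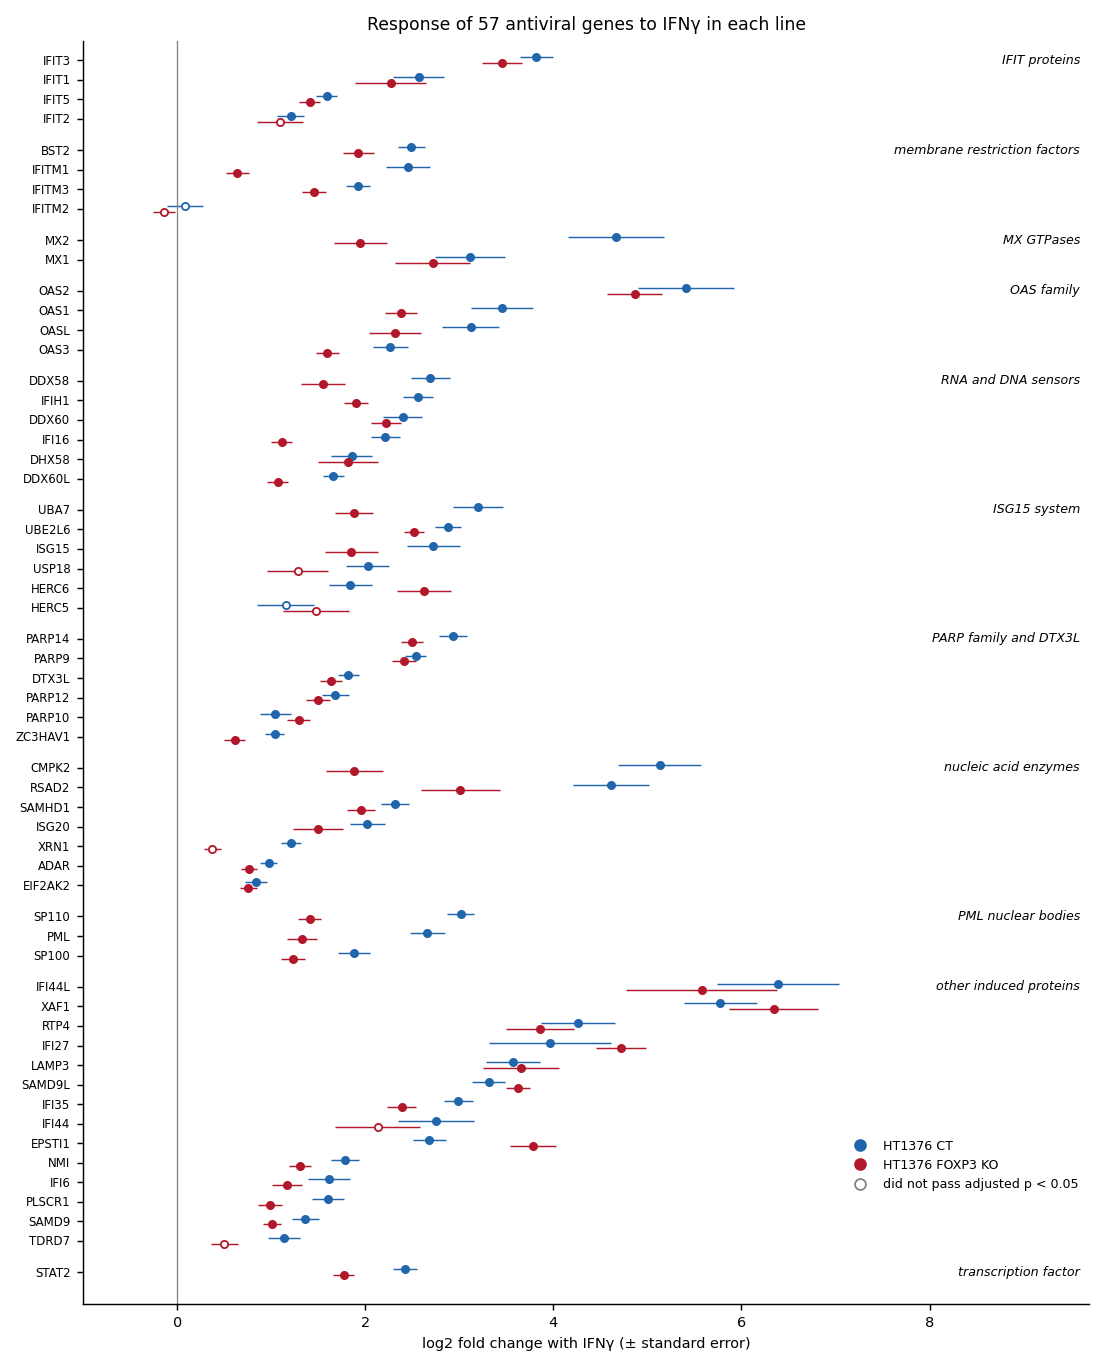
log2 fold change with IFNγ (x axis, ± standard error of the fit) of each of the 57 genes in HT1376 CT (blue) and HT1376 FOXP3 KO (red), grouped by role. Filled symbols passed an adjusted p of 0.05. Nearly all symbols lie right of 0, from IFITM2 near 0 to IFI44L at 6.39 in CT, and the red symbols lie mostly left of the blue ones, with XAF1, IFI27, EPSTI1 and HERC6 among the exceptions.

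Before treatment the lines already differed. In untreated KO, 29 of the 57 genes were lower than in CT and 6 were higher, against 18.2% of all 25320 genes tested that were lower and 14.0% that were higher. The median log2 difference (KO minus CT throughout) was -0.50, against -0.02 over all genes tested. With IFNγ in both lines, 43 genes were lower in KO and 2 were higher, against 15.7% of all 24388 genes that were lower and 13.2% that were higher. The median was then -0.94, against 0.02 over all genes. Under a further limit of an absolute log2 difference over 1, these totals of 35 and 45 genes became 22 and 29, against 19.5% and 19.0% of all genes. With the replicate block, here shared by both lines, they became 41 and 50, against 36.6% and 34.0% of all genes.

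The interaction, the difference between the 2 IFNγ effects fitted on all 12 libraries, passed for 5 of the 57 genes, all with a smaller IFNγ effect in KO. They were CMPK2, IFITM1, SP110, IFI16 and XRN1. Over all 27806 genes tested, 0.108% were lower and 0.00360% higher in this test. In all, 26 genes of the set had an unadjusted p under 0.05, against 1727 of all 27806 genes tested. The median interaction over the set was -0.47, against 0.03 over all genes. With the replicate block, 18 genes were lower (against 0.683% of all genes) and EPSTI1 was higher (against 0.525% of all genes). That block was shared by both lines, though the replicate numbers were taken to pair libraries only within a line. A block within each line, with the bias-adjusted deviance of glmQLFit, was chosen after seeing the data. It gave 26 genes lower and 2 higher, against 3.12% of all genes called in either direction. The count of 5 therefore does not mean that the other genes responded alike. Of the 5 calls, only that of SP110 held in every fit without 1 library. These fits left between 1 and 6 genes of the set, against 0.0556% to 0.12% of all genes. Without replicate 13 in every group, 0 genes of the set passed, against 0.0321% of all genes.

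**Figure D4:**
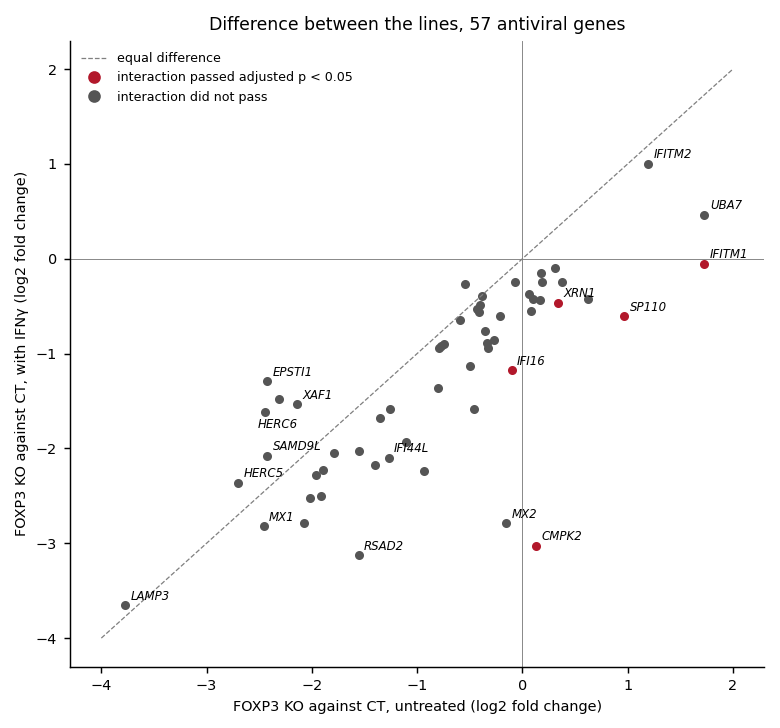
Difference between the lines (KO against CT, log2 fold change) of the 57 genes, untreated on the x axis and with IFNγ on the y axis. The dashed line marks equal differences and red points are the 5 genes whose interaction passed. Most points lie below and to the left of 0, LAMP3 lies lowest on both axes (-3.77 and -3.65), and CMPK2 (0.13 and -3.03) and MX2 (-0.15 and -2.79) are alike before treatment only.

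The 5 genes whose interaction passed fell into 2 kinds. CMPK2, a mitochondrial nucleotide kinase, was alike in the untreated lines and diverged under IFNγ. Its level was 0.584, 2.702 and 1.24 normalized CPM in the CT libraries (replicates 11, 12 and 13, in this order here and in all that follows) and 36.8, 75.3 and 36.6 with IFNγ. In KO it was 2.19, 1.43 and 1.09, and 5.63, 5.88 and 5.96 with IFNγ. The untreated lines overlapped, and every treated CT library lay above every treated KO library. The log2 fold change with IFNγ was 5.13 ± 0.44 in CT and 1.88 ± 0.31 in KO, and the interaction was -3.25 ± 0.58 (adjusted p = 0.0403). The call was lost in 10 of the 12 fits without 1 library, all but those without untreated CT replicate 12 or treated CT replicate 11, with an adjusted p of up to 0.315, while the value stayed between -3.72 and -2.79.

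IFI16, a nuclear DNA sensor and the member of the RNA and DNA sensor group with the highest level per kb, showed the same kind of pattern. It measured 87.7, 108 and 69.6 CPM in CT and 425, 422 and 367 with IFNγ, against 80.7, 88.04 and 76.9 in KO and 167, 181 and 175 with IFNγ. The untreated lines overlapped and the treated lines did not (log2 difference -1.17 ± 0.11, adjusted p = 2.03e-05). The interaction was -1.11 ± 0.20 (adjusted p = 0.0403). It passed in 1 of the 12 fits without 1 library, the one without untreated CT replicate 12 (adjusted p of up to 0.138 in the others).

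The other kind was higher in untreated KO and lost that lead with IFNγ. IFITM1, a membrane protein that blocks viral entry, measured 10.6, 16.1 and 8.7 CPM in CT and 35.02, 38.9 and 40.9 in KO before treatment. With IFNγ it reached 61.02, 77.3 and 50.7 in CT and 52.5, 58.8 and 64.8 in KO. The untreated lines did not overlap (1.73 ± 0.21 log2, adjusted p = 0.000102), whereas the treated lines did (-0.05 ± 0.17, adjusted p = 0.86). Its IFNγ effect was 2.45 ± 0.23 in CT and 0.64 ± 0.12 in KO, and the interaction was -1.81 ± 0.28 (adjusted p = 0.0153). The call was lost without untreated CT replicate 11 or 13 or treated KO replicate 11 (adjusted p of up to 0.0615). IFITM1, IFITM2 and IFITM3 are close copies on chromosome 11 (303655 to 329475), and how reads shared among them were counted is not stated, so the value of each is uncertain.

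SP110, a nuclear body protein of the SP100 family, measured 24.1, 22.7 and 18.8 CPM in CT and 46.5, 37.3 and 43.3 in KO. With IFNγ the order turned, at 156, 195 and 171 in CT and 122, 102 and 108 in KO. Neither pair of groups overlapped, and both differences passed (0.97 ± 0.14 untreated, adjusted p = 0.000413, and -0.61 ± 0.13 with IFNγ, adjusted p = 0.00577). Its interaction of -1.61 ± 0.19 had the smallest adjusted p of the set, 0.00108, and passed in all 12 fits without 1 library. It did not pass without replicate 13 in every group.

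XRN1, the main cytoplasmic exonuclease that degrades RNA from its 5′ end, turned in the same way over a smaller range. It measured 128, 134 and 116 CPM in CT, 162, 154 and 157 in KO, 292, 299 and 269 in CT with IFNγ and 207, 199.9 and 197 in KO with IFNγ. The interaction was -0.84 ± 0.14 (adjusted p = 0.0239) and passed in 1 of the 12 fits without 1 library, again the one without untreated CT replicate 12 (adjusted p of up to 0.129 in the others). PML, the organizing protein of PML nuclear bodies, came next by p and did not pass without the replicate block (-1.34 ± 0.25, adjusted p = 0.0653) but passed with it. Its CPM were 14.6, 22.5 and 20.1 in CT, 94.9, 129 and 133 in CT with IFNγ, 11.7, 9.23 and 8.702 in KO and 22.5, 25.03 and 25.9 in KO with IFNγ, so KO was lower both before (log2 difference -0.93 ± 0.20) and after treatment (-2.23 ± 0.16).

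**Figure D5:**
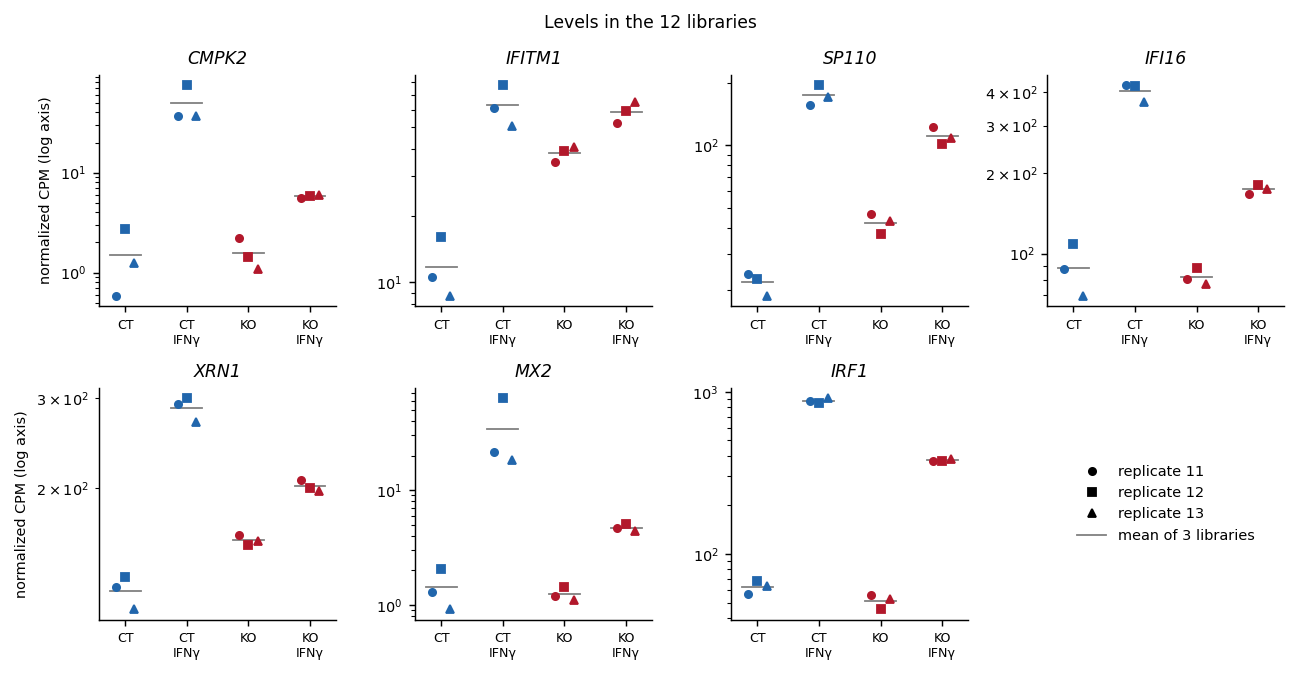
Normalized CPM (log axis, a different range in each panel) of 7 genes in the 12 libraries. Symbols are the replicate numbers, grey lines are group means, blue is HT1376 CT and red HT1376 FOXP3 KO. CMPK2, MX2 and IFI16 start at like levels in both untreated lines and separate with IFNγ, IFITM1, SP110 and XRN1 start higher in KO, and IRF1 starts at 45.5 to 67.7 CPM over both lines and reaches more in CT than in KO.

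Among the MX GTPases, which trap incoming viral particles, the neighbouring genes MX2 and MX1 (chromosome 21, 41361999 to 41470071) differed between the lines in different ways. MX2 measured 1.28, 2.07 and 0.9199 CPM in CT and 21.4, 63.02 and 18.4 with IFNγ, and in KO 1.204, 1.43 and 1.09 and 4.69, 5.03 and 4.44. Its untreated libraries overlapped between the lines and its treated ones did not (-2.79 ± 0.43, adjusted p = 0.000598). The highest MX2 library, replicate 12 of CT with IFNγ, was also the library with the fewest counts. The interaction (-2.71 ± 0.62) did not pass without the replicate block (adjusted p = 0.189) and passed with it.

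MX1 was already lower in untreated KO. Its CPM were 26.5, 62.4 and 27.4 in CT and 8.65, 9.05 and 3.34 in KO, a log2 difference of -2.46 ± 0.40 (adjusted p = 0.000848). With IFNγ they were 242, 503 and 239 in CT and 38.5, 65.6 and 31.7 in KO. The groups did not overlap in any of the comparisons of lines or of treatments, and the IFNγ effects of 3.11 ± 0.37 in CT and 2.72 ± 0.40 in KO gave an interaction of -0.40 ± 0.57 that did not pass.

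IFIT proteins bind viral RNA that lacks the cap modifications of the cell. IFIT3, the most abundant of the 4 per kb of exon with IFNγ (IFIT2 and IFIT5 lay above it untreated), measured 30.8, 50 and 38.7 CPM in CT and 512, 612 and 534 with IFNγ. In KO it measured 15.2, 19.9 and 11.6, and 158, 189 and 154 with IFNγ. KO was lower before (-1.35 ± 0.22 log2) and after treatment (-1.68 ± 0.13), while the IFNγ effects of 3.82 ± 0.17 and 3.45 ± 0.21 gave an interaction of -0.37 ± 0.26 that did not pass. IFIT1, IFIT3 and IFIT5 were lower in KO in both comparisons of the lines, and IFIT2 passed in neither without the replicate block and was lower in both with it. The 4 genes lie within 138 kb on chromosome 10 (89283694 to 89421605), and 24 of the 57 genes lie in 10 such clusters, with at most 100 kb between neighbours.

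In the OAS family, OAS1, OAS2 and OAS3 make the messenger that activates RNase L, which degrades RNA, and OASL is listed with them. OAS2 had the largest IFNγ effect after IFI44L and XAF1 in each line. It measured 2.45, 13.9 and 4.13 CPM in CT and 235, 356 and 221 with IFNγ (5.41 ± 0.51 log2, adjusted p = 4.64e-05). In KO it rose from 1.94, 3.49 and 1.56 to 55.9, 77.9 and 59.2 (4.87 ± 0.29, adjusted p = 2.18e-05). The treated lines did not overlap, with KO lower by 2.03 on the log2 scale. OAS3 was the most abundant of the family per kb, at 80.4, 121 and 104 CPM in CT and 107, 116 and 97.97 in KO. With IFNγ it measured 391, 611 and 448 and 282, 353 and 323, and KO was lower (-0.56 ± 0.17, adjusted p = 0.03, lost in 5 of 9 fits without 1 or 2 libraries). OAS1 rose in both lines and passed in neither comparison of the lines, though with the replicate block it was higher in untreated KO and lower in treated KO. OASL was lower in KO in both.

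Of the membrane restriction factors, BST2, which tethers budding virions to the cell, had the highest level per kb except in untreated KO, where IFITM2 and IFITM1 lay above it. It measured 16, 22.2 and 19.9 CPM in CT, 111, 101 and 109 with IFNγ, 20.9, 24.2 and 17 in KO and 70.1, 86.7 and 75.1 with IFNγ. The untreated lines overlapped, and treated KO was lower (-0.43 ± 0.13, adjusted p = 0.0262, lost in 6 of 9 fits without 1 or 2 libraries). IFITM2 was the member that did not respond in either line, and it was higher in KO. Its CPM were 18.3, 19.2 and 19.1 in CT, 25.6, 14.5 and 18.5 with IFNγ, 45.9, 38.4 and 44.7 in KO and 35.04, 38.8 and 41.2 with IFNγ. Both differences between the lines passed (1.20 ± 0.13 untreated and 1.0 ± 0.19 with IFNγ). No member of this group was lower in untreated KO.

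The RNA and DNA sensors rose in both lines, 6 of 6 each time, against 3.53% of all genes in CT and 0.978% in KO. Apart from IFI16, the group holds DDX58 (RIG-I) and IFIH1 (MDA5), which detect double-stranded viral RNA, DHX58, which modulates them, and the related helicases DDX60 and DDX60L. In KO the IFNγ calls of DHX58 and DDX58 were lost in 6 and 4 of 9 fits without 1 or 2 libraries. Those of IFI16 and DDX60L were lost in 1 each. Untreated, IFIH1 and DDX60 were lower in KO, and with IFNγ all but DHX58 were. The untreated difference of IFIH1 was lost in 8 of 9 fits without 1 or 2 libraries. DDX58 had an IFNγ effect of 2.69 ± 0.21 in CT and 1.55 ± 0.23 in KO, with an interaction (-1.16 ± 0.31) that passed only with the replicate block. DDX60 responded alike, with 2.40 ± 0.21 in CT and 2.22 ± 0.16 in KO (interaction -0.18 ± 0.27, adjusted p = 0.972).

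ISG15 is a ubiquitin-like protein, UBA7, UBE2L6 and HERC5 are the enzymes that attach it to other proteins, USP18 removes it, and HERC6 is a relative of HERC5. In untreated KO the E1 enzyme UBA7 was higher than in CT, whereas ISG15, HERC5, HERC6 and USP18 were lower. UBA7 measured 2.22, 4.69 and 2.34 CPM in CT and 12.6, 9.49 and 7.49 in KO, a log2 difference of 1.73 ± 0.33 (adjusted p = 0.0022). With IFNγ it measured 27.5, 26.3 and 26.9 in CT and 34.6, 39.8 and 33.6 in KO (0.46 ± 0.14, adjusted p = 0.0331, lost in 8 of 9 fits without 1 or 2 libraries). KO was above CT without overlap in both comparisons.

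HERC5 had the largest decrease in untreated KO after LAMP3. Its CPM were 21.2, 37.8 and 20.7 in CT and 5.76, 4.21 and 2.02 in KO (-2.70 ± 0.36, adjusted p = 0.000186). With IFNγ they were 43.3, 89.1 and 43.9 and 12.1, 12.2 and 8.98. HERC6 measured 17.2, 27.3 and 18.2 in CT, 60.4, 98.6 and 62.1 with IFNγ, 3.91, 5.37 and 2.31 in KO and 21.8, 26.3 and 21.5 with IFNγ. Its IFNγ effect was larger in KO (2.63 ± 0.29) than in CT (1.84 ± 0.23), a difference that did not pass (adjusted p = 0.799). ISG15 itself was lower in KO by 1.11 untreated and by 1.94 with IFNγ on the log2 scale, and the untreated call was lost in 5 of 9 fits without 1 or 2 libraries.

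UBE2L6, the E2 enzyme, was the most abundant member of that system per kb and did not pass between the lines. Its CPM were 28.6, 40.4 and 34.5 in CT, 255, 251 and 245 with IFNγ, 41.2, 37.2 and 37.98 in KO and 205, 219.6 and 232 with IFNγ. The rise was 2.88 ± 0.14 in CT and 2.52 ± 0.10 in KO on the log2 scale.

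The PARP family members with DTX3L, which modify proteins with ADP-ribose or bind viral RNA, passed in both lines, though ZC3HAV1 in KO (adjusted p = 0.036) was lost in 8 of 9 fits without 1 or 2 libraries. PARP14 was the most abundant per kb with IFNγ (DTX3L lay above it untreated), at 227, 319.9 and 242 CPM in CT and 1810.2, 2263 and 1876 with IFNγ. In KO it measured 217, 201 and 193, and 1137, 1236 and 1026 with IFNγ. KO was lower with IFNγ by 0.76 on the log2 scale (adjusted p = 0.000931) with no overlap. Their median log2 fold changes were 1.75 in CT and 1.57 in KO. For the interaction 0 of 6 passed, and 0 of 6 with the replicate block. At an unadjusted p under 0.05 there were 2 of 6, against 1727 of all 27806 genes tested. PARP9 and DTX3L share a promoter region on chromosome 3, and overlapping genes cannot be told apart where the strand setting of the counting is not known.

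The enzymes that act on nucleic acids and nucleotides had log2 fold changes with IFNγ of 0.84 to 5.13 in CT. RSAD2 (viperin), which makes a chain-terminating nucleotide, lies next to CMPK2 on chromosome 2. It measured 2.69, 6.2 and 3.84 CPM in CT and 62.1, 165 and 75.6 with IFNγ, and in KO 1.204, 2.33 and 0.864 and 7.57, 16.04 and 10.2. KO was lower without overlap before (-1.56 ± 0.44, adjusted p = 0.0194, lost in 6 of 9 fits without 1 or 2 libraries) and after treatment (-3.13 ± 0.38, adjusted p = 0.000114). ADAR, the editor of double-stranded RNA, was the most abundant of these enzymes per kb. It rose from 434, 492 and 442 CPM to 855, 893 and 898 in CT and from 441, 401 and 456 to 719, 675 and 776 in KO, under 2-fold in CT (0.97 ± 0.09 log2) and in KO (0.77 ± 0.09). SAMHD1, which depletes deoxynucleotides, the exonuclease ISG20 and EIF2AK2 (PKR), the kinase that halts translation, were lower in KO in both comparisons of the lines.

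The remaining induced proteins held the largest responses. IFI44L measured 0.292, 1.35 and 0.657 CPM in CT and 32.5, 119 and 29.5 with IFNγ. In KO it measured 0.215, 0.806 and 0 and 15.01, 20.6 and 5.61. Its untreated counts were low, with none in KO replicate 13, so its log2 fold changes of 6.39 ± 0.65 and 5.58 ± 0.80 rest on few untreated counts. XAF1, a pro-apoptotic protein, went from 2.74, 9.78 and 3.13 to 265, 275 and 254 CPM in CT and from 0.903, 2.51 and 0.288 to 89.4, 97.9 and 77.99 in KO. These were rises of 5.78 ± 0.39 and 6.35 ± 0.47 on the log2 scale, the latter the largest in KO, and treated KO stayed below treated CT by 1.53.

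IFI27, a mitochondrial protein, measured 1.58, 14.1 and 2.52 CPM in CT, where replicate 12 stood far above the others, and 62.6, 136 and 61.6 with IFNγ. In KO it measured 0.817, 1.52 and 1.27 and 23.9, 35.5 and 31.1. RTP4, a chaperone of membrane receptors, measured 0.584, 2.78 and 1.39 and 24.1, 37.9 and 24.98 in CT. In KO, RTP4 measured 0.516, 0.269 and 0.403 and 5.69, 7.49 and 4.89. For both genes the treated groups lay above the untreated ones without overlap, and KO was lower than CT in both comparisons, though the untreated difference was lost in 6 of 9 fits without 1 or 2 libraries for IFI27 and in 7 of 9 for RTP4.

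Several genes were much lower in untreated KO and rose with IFNγ in both lines. LAMP3, a lysosomal membrane protein, had the largest difference of the set. Its CPM were 4.55, 5.01 and 4.31 in CT and 0.387, 0.448 and 0.173 in KO (-3.77 ± 0.39 log2, adjusted p = 3.39e-05). With IFNγ, CT reached 41.04, 82.6 and 39.96 and KO 4.62, 3.96 and 3.92, so treated KO overlapped untreated CT. The rises of 3.57 ± 0.29 in CT and 3.66 ± 0.40 in KO gave an interaction of 0.08 ± 0.38.

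SAMD9L and SAMD9, neighbours on chromosome 7 whose products restrict poxviruses, were also low in KO. SAMD9L measured 77.8, 120.5 and 78.7 CPM in CT and 17.9, 17.1 and 16.3 in KO, and with IFNγ 961, 933 and 812 and 229, 199.8 and 193. SAMD9, the most abundant gene of its group per kb except in treated KO, where IFI6 lay just above it, measured 746, 801 and 614 in CT and 182, 186 and 183 in KO, and with IFNγ 1942, 2072 and 1458 and 383, 354 and 353. Treated KO thus stayed below untreated CT for SAMD9 in every library, and KO was lower by 1.96 untreated and 2.28 with IFNγ on the log2 scale. EPSTI1 measured 26.5, 39.3 and 24.4 in CT, 191, 207 and 171 with IFNγ, 4.73, 6.99 and 5.13 in KO and 68, 97.01 and 59.9 with IFNγ. Its rise was 3.78 ± 0.25 in KO and 2.68 ± 0.18 in CT, and the interaction of 1.09 ± 0.29 did not pass without the replicate block (adjusted p = 0.344) and passed with it.

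STAT2, the only transcription factor of the set, measured 37.5, 40.3 and 41.5 CPM in CT and 51.4, 52.2 and 50.3 in KO. With IFNγ it measured 197, 244 and 192 and 169, 184 and 163. Untreated KO was higher without overlap (0.38 ± 0.11, adjusted p = 0.0235), and treated KO lay just below treated CT in every library, a difference that did not pass (-0.25 ± 0.13).

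The other genes of the pathway were read beside the set. Of 42 such genes, 38 were tested in CT, where 16 were higher with IFNγ and 0 lower (against 3.53% and 1.82% of all genes), and 35 in KO, where 7 were higher and 0 lower (against 0.978% and 0.00414%). IRF1, a transcription factor that IFNγ induces, differed between the treated lines. It measured 56.8, 67.7 and 63.4 CPM in CT, 873, 855 and 909.7 with IFNγ, 55.4, 45.5 and 52.7 in KO and 375, 371 and 387 with IFNγ. The rise was 3.83 ± 0.11 in CT and 2.91 ± 0.11 in KO, and the interaction passed (-0.93 ± 0.15, adjusted p = 0.0171). IRF1 was the only one of the 38 pathway genes tested to pass for the interaction. Fits with libraries left out were read for the 57 genes only, so this call was not examined in that way. IRF9, the partner of STAT2, measured 2.63, 1.59 and 1.39 in CT and 7.96, 6.93 and 6.76 with IFNγ, and in KO 2.15, 1.97 and 1.61 and 9.98, 9.09 and 6.64. It rose alike, with 1.98 ± 0.32 in CT and 2.18 ± 0.27 in KO, and did not pass between the lines.

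The receptors and kinases were mostly lower in untreated KO. IFNGR2 was at -1.22 ± 0.15, IFNGR1 at -0.56 ± 0.12, IFNAR1 at -0.49 ± 0.12 and IFNLR1 at -1.65 ± 0.20 on the log2 scale, all past the threshold, and IFNAR2 was higher (0.85 ± 0.23). JAK2 was lower (-1.06 ± 0.15), JAK1 was higher (0.54 ± 0.11), and TYK2 did not pass. In all, 15 of the 33 pathway genes tested between the untreated lines were lower in KO and 5 were higher, against 18.2% and 14.0% of all genes. Of the interferon genes themselves, IFNG and IFNA1 had no count in any library (which allows up to 3 counts in each), IFNB1 and IFNK had too few counts to be tested, and IFNE, the highest, stayed at or under 2.07 CPM. IFNL1, IFNL2 and IFNL3 were at or under 0.97 CPM in every library.

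Other gene families that IFNγ is known to induce are given for scale. The median log2 fold change of 7 guanylate-binding protein genes was 7.79 in CT and, over the 6 tested, 4.66 in KO. For the interaction 3 of 7 passed, all lower, against 0.108% of all genes that were lower. Some untreated CT counts were near 0 (GBP5 0, 5 and 20, GBP6 0, 0 and 4, GBP7 0, 0 and 0). Between the untreated lines the median difference of 6 tested was 1.53, with 2 higher and 0 lower in KO (14.0% and 18.2% of all genes). For 8 genes of MHC class I presentation the medians with IFNγ were 3.44 in CT and 2.60 in KO, and 0 of 8 passed for the interaction. At an unadjusted p under 0.05 there were 4, against 1727 of all 27806 genes tested. The treatment groups of each line are shared by all of these genes, so the values stand side by side and no test between the families was made.

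The responses of members with and without an ISRE core in their window are given side by side, with no test between them. In CT the median log2 fold change was 2.40 for the 29 with a match (0.84 to 6.39) and 2.54 for the 17 without (0.97 to 5.78). In KO the medians were 1.64 and 1.89. Between the untreated lines they were -0.77 and -0.21, and for the interaction -0.45 and -0.60. Of the 5 genes that passed for the interaction, IFITM1 had an ISRE core, and it had a GAS core too.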

How the data were processed

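Gene expression was measured by RNA-seq in 12 libraries of HT1376 cells. The authors depleted ribosomal RNA, aligned the reads to hg38 with STAR 2.7.11a, filtered out Mycoplasma reads with Kraken, counted reads per gene with htseq-count and deposited these raw counts. The strand setting and the rule for multi-mapped reads are not given in the sources used here. Groups followed the sample labels.

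For each comparison, genes whose counts summed to 10 or more were fitted by quasi-likelihood in edgeR 4.0.16 (R 4.3.3, TMM normalization, package default of glmQLFit) with Benjamini-Hochberg adjustment over all of them. Each pair of groups was fitted on its 6 libraries and the interaction on all 12. Errors of log2 fold changes are standard errors from the F statistic. Levels are counts per 1000000 (CPM) with TMM factors over the 12 libraries, and genes were compared per kb of GENCODE exons (GRCh38). STING1, a pathway gene, was matched by its Ensembl identifier. Scripts were tested on simulated data. DESeq2 1.42.0, other filters and normalization, a replicate block and leaving out libraries were alternatives. Library totals of 4490684 to 39270042 counts set the precision.

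Values in every library are given for the 8 genes with the largest IFNγ effect in each line, the 6 in each direction between the untreated lines, the 6 with the smallest interaction p, the most abundant gene per kb of each role group, IRF1 and IRF9. A pathway gene is not reported here and is left out of the pathway counts. The genes, the lists and this rule were chosen with earlier results of these data known.

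Replicate numbers 11, 12 and 13 recur in every group. Over 27806 genes, libraries of 1 line with the same number had deviations from their group means that correlated at 0.24 to 0.45, and at 0.39 to 0.65 over the 15677 genes with a mean of at least 1 CPM. Between the lines the same number gave 0.09 to 0.25 and 0.15 to 0.39, so the rule of over 0.1 for every pair was met on both gene sets only within a line. The numbers were taken to pair libraries within a line. The main tests did not use this pairing. In the comparisons of the lines and in the interaction, the replicate block was shared by both lines, which goes beyond that pairing.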

Additional observations from a re-analysis of the deposited data

Results flagged for a closer look

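The effect of IFNγ differed between the lines, by the interaction term of edgeR's quasi-likelihood test, for 5 of the 57 genes. The interaction was -3.25 for CMPK2, -1.81 for IFITM1, -1.61 for SP110, -1.11 for IFI16 and -0.84 for XRN1 on the log2 scale, each a smaller rise in HT1376 FOXP3 KO. SP110 passed in all 12 fits without 1 library, IFITM1 in all but 3, CMPK2 in 2, and IFI16 and XRN1 in 1 each. Without replicate 13 in every group, 0 of the 5 passed. No group of these data has 4 or more libraries, so single libraries could not be examined for outliers.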

How the results depend on the processing

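No gene of the set that passed changed its direction under any alternative. With RLE normalization, other filters, DESeq2, the bias-adjusted deviance of glmQLFit or all 12 libraries in 1 fit, the number of genes called stayed at 55 to 56 for IFNγ in HT1376 CT, 50 to 54 in HT1376 FOXP3 KO, 32 to 38 between the untreated lines and 45 to 48 between the treated lines. In the same order, these fits called 4.34% to 7.97%, 0.978% to 1.42%, 24.4% to 43.2% and 22.5% to 39.1% of all genes. An absolute log2 fold change over 1 left 22 genes between the untreated lines (19.5% of all genes) and 29 between the treated lines (19.0%). The interaction was the least stable count, at 5 genes, with 12 without a filter on low counts (0.77% of all genes), 3 with filterByExpr (0.132%) and 10 with DESeq2 (0.575%).

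With the replicate block the counts were 56 in CT (18.6% of all genes) and 56 in KO (5.53%). They were 41 between the untreated lines (36.6% of all genes), 50 between the treated lines (34.0%) and 19 for the interaction (1.21%). For the comparisons of the lines and the interaction, that block was shared by both lines. Adding the bias-adjusted deviance to the block gave 17 genes for the interaction (0.827%), and with a block within each line and that deviance, chosen after seeing the data, 28 (3.12%).

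Leaving out 1 library, or 1 replicate number in every group, gave 53 to 56 genes in CT, 27 to 51 in KO, 21 to 34 between the untreated lines, 36 to 46 between the treated lines and 0 to 7 for the interaction (1 to 6 without 1 library). Of all genes tested, these fits called 1.75% to 5.01% in CT and 0.478% to 1.32% in KO. They called 19.6% to 32.1% between the untreated lines, 16.9% to 32.4% between the treated lines and 0.0321% to 0.182% for the interaction. The lowest count in KO came without replicate 11, and the lowest between the untreated lines without replicate 13. The cause was not tested. The depth of 4490684 counts in treated CT replicate 12 and the few counts of IFI44L, RTP4 and LAMP3 in untreated KO limit the precision of those values.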
